A study of Mus musculus with 24 samples.

Results

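A set of 45 genes of DNA replication and mitosis were followed in bone marrow derived macrophages (BMDMs) given lipopolysaccharide (LPS), the bacterial cell wall component sensed by TLR4. The set holds 17 genes used for DNA synthesis in S phase, called replication members here, and 28 genes used in G2 phase and mitosis, called mitosis members. They were found by matching gene identifiers of the count table, with the version removed, to gene symbols in the GENCODE M21 annotation of GRCm38, and 45 of the 22165 genes in the table are members. All 45 had enough counts to be tested.

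The series measured mRNA at 3′ ends in 24 libraries, to compare a first LPS response with the response of cells that LPS had already made tolerant, with and without itaconate. Itaconate is made by aconitate decarboxylase 1, encoded by Acod1 (earlier Irg1), and Irg1-/- cells carry a whole-body deletion of it. BMDMs came from WT and Irg1-/- C57BL/6N mice aged 8 to 20 weeks. They were grown for 7 days in M-CSF at 20 ng/ml, renewed on day 4. All groups share this culture, in which M-CSF itself drives division. Cells were then harvested and seeded for stimulation in a medium for which the methods name no M-CSF. Each genotype had 4 groups of 3 libraries from separate cultures: no LPS (Unstim.), 100 ng/ml LPS for 3 h (LPS 3h), the same dose for 24 h (LPS 24h), and 24 h of LPS followed, after a change of medium and 1 h of rest, by a further 3 h of LPS (LPS 24h->LPS 3h). LPS 3h cells went through the same steps without the first dose. No such change of medium or rest is given for Unstim. and LPS 24h cells. LPS 3h against Unstim., and LPS 24h->LPS 3h against LPS 24h, thus differ in these steps as well as in LPS. The part of these steps was not tested. Whole cultures were read, so a level is an average over dividing and resting cells.

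Cells that divide make the mRNAs of this set in turn. In late G1 phase E2F factors switch on the licensing genes (Cdc6, Cdt1 and the Mcm2 to Mcm7 helicase). They also switch on the enzymes that supply nucleotides and the clamp Pcna. In G2 phase B-Myb-FoxM1 complexes, which bind CHR elements in promoters, switch on the cyclins, kinases, kinesins and kinetochore genes of mitosis. CDK inhibitors such as p21 (Cdkn1a) and loss of D-type cyclins hold cells in G1 phase. Macrophages in M-CSF cycle, and LPS is known to stop that cycling.

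Gene counts per library ran from 3927378 to 20430359 (median 11539056), and the 45 members took 1534 to 17112 of them, or 0.0173% to 0.116%. Levels below are normalised CPM, counts scaled to a common total by the library total and edgeR's TMM factor, and they compare libraries, not genes. Acod1, the check of the genotype labels, was at 22837, 28063 and 15643 CPM in WT LPS 3h and 26.4, 7.94 and 1.58 in Irg1-/- LPS 3h. Of 8 macrophage markers, all were detected in every group, at a summed 3673 to 10138 CPM. Libraries were assigned to 4 pools by a number in the labels. The labels do not say what the number is, and reading it as a sequencing pool is an inference. All 6 Unstim. libraries were in pool 4, with replicate 3 of each WT LPS group, and no LPS-treated Irg1-/- library was in pool 4. In Irg1-/- cells pool and LPS therefore cannot be told apart without the WT libraries. Members were called when edgeR's quasi-likelihood test, fitted on all 24 libraries and 11878 genes, gave a Benjamini-Hochberg adjusted p under 0.05, and the Unstim. libraries are shared by the LPS 3h and LPS 24h comparisons.

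**Figure D1:**
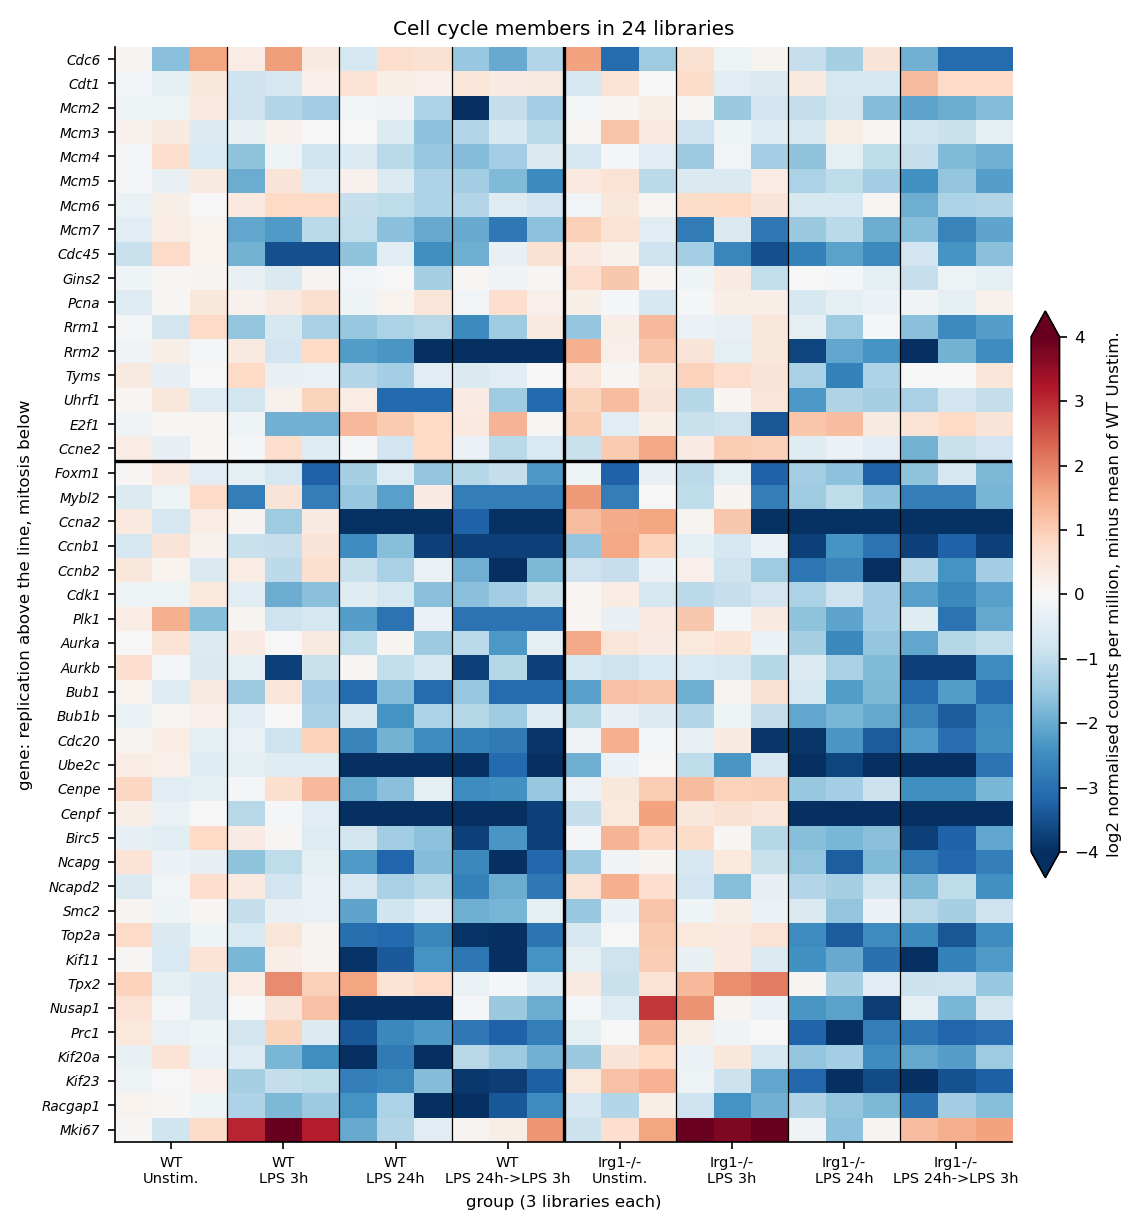
Colour gives each member's log2 CPM (prior count of 2) in each of the 24 libraries minus its mean in the 3 WT Unstim. libraries, from blue (lower) to red (higher), with colours saturated beyond 4 in either direction. Mitosis members, below the line, are mostly blue after 24 h of LPS in both genotypes, and Mki67, in the bottom row, is deep red at LPS 3h.

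After 24 h of LPS the mitosis members were low in both genotypes. In WT cells 12 of 28 fell and 0 rose, and in Irg1-/- cells 15 of 28 fell and 0 rose. Of the 17 replication members, 2 fell in WT cells (Mcm6 and Rrm2) and 3 in Irg1-/- cells (Mcm7, Rrm2 and Tyms), and 0 rose in either. Among all genes tested 6.98% fell and 9.25% rose in WT cells, and 6.38% fell and 7.31% rose in Irg1-/- cells. The median log2 fold change of the mitosis members was -2.27 in WT and -2.42 in Irg1-/- cells, against 0.00 and -0.00 over all genes, and that of the replication members was -0.64 and -0.94. For 25 members in WT and 27 in Irg1-/- cells, the 3 LPS 24h libraries all lay below the 3 Unstim. libraries, which held for 16.5% and 14.2% of all genes tested; these were 20 mitosis and 5 replication members in WT and 20 and 7 in Irg1-/- cells. In a bulk sample fewer cycling cells and less of each mRNA per cycling cell cannot be told apart.

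**Figure D2:**
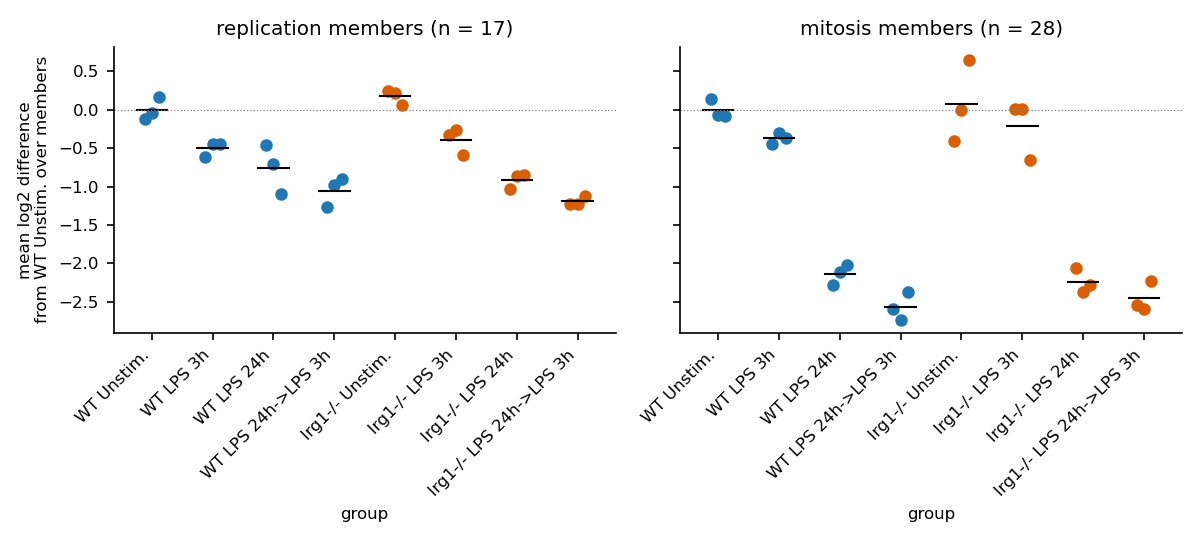
Each point is a library: the mean over replication members (left) or mitosis members (right) of log2 CPM minus the WT Unstim. mean, with WT in blue, Irg1-/- in orange and a bar at the mean of 3. For mitosis members the 12 libraries with 24 h of LPS sit between -2.73 and -2.02, and the 12 others between -0.65 and 0.65; replication members move by less.

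Kinetochore and chromosome genes were among the members with the lowest adjusted p. Cenpf, a large kinetochore protein of G2 and mitosis, was at 25.6, 17.9 and 21.1 CPM in WT Unstim. and 0, 0.357 and 0.478 in WT LPS 24h, and at 10.9, 28.5 and 65.2 in Irg1-/- Unstim. and 0.406, 0.21 and 0.595 in Irg1-/- LPS 24h. Unstim. and LPS 24h libraries were more than 10 CPM apart in each genotype. Its fall on the log2 scale was a change of -6.14 for WT (SE 0.85, adjusted p = 1.89e-06), and of -6.35 for Irg1-/- (SE 0.80, adjusted p = 4.36e-07). Top2a, the topoisomerase that untangles sister chromatids, was at 69.3, 27.4 and 35.2 CPM in WT Unstim. and 4.87, 4.56 and 6.5 in WT LPS 24h, and at 26, 40.3 and 83.5 and 6.96, 3.86 and 6.88 in the same Irg1-/- groups. No library of either LPS 24h group reached 7 CPM, and no Unstim. library was under 26. The log2 fold change of Top2a was -3.05 (SE 0.45, adjusted p = 4.6e-06) in WT and -3.08 (SE 0.44, adjusted p = 3.74e-06) in Irg1-/- cells. Cenpe, the kinetochore motor, went from 64.6, 26.6 and 27.3 to 8.52, 11.2 and 28.2 CPM in WT cells, with overlap, and from 30.5, 49.4 and 72.8 to 12.5, 14.1 and 19.9 in Irg1-/- cells, without. Its log2 fold changes were -1.30 (SE 0.43, adjusted p = 0.0347) and -1.72 (SE 0.43, adjusted p = 0.00555). For Cenpe the adjusted p exceeded 0.05 without WT Unstim. replicate 1 (adjusted p = 0.331), WT LPS 24h replicate 1 (adjusted p = 0.173) or WT LPS 24h replicate 2 (adjusted p = 0.174). In Irg1-/- cells it exceeded 0.05 without Irg1-/- Unstim. replicate 3 (adjusted p = 0.0585). Of the condensin subunits, which compact chromosomes, Ncapg fell in WT cells (from a range of 5.56 to 10.5 CPM to one of 0.626 to 2.01, log2 fold change -2.47, SE 0.72, adjusted p = 0.016), Ncapd2 fell in Irg1-/- cells (from 5.92 to 10.9 CPM down to 1.47 to 2.21, log2 fold change -2.10, SE 0.61, adjusted p = 0.0178), and Smc2 passed in neither. Smc2 was at 99.1, 82.6 and 95.5 CPM in WT Unstim. and 21.1, 52.6 and 67.2 in WT LPS 24h. For Ncapg the adjusted p exceeded 0.05 without WT Unstim. replicate 1 (adjusted p = 0.0814) or WT LPS 24h replicate 2 (adjusted p = 0.0906). For Ncapd2 the adjusted p exceeded 0.05 without Irg1-/- Unstim. replicate 2 (adjusted p = 0.0818), Irg1-/- LPS 24h replicate 1 (adjusted p = 0.0767) or Irg1-/- LPS 24h replicate 2 (adjusted p = 0.0799).

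Cyclin A2 and the ubiquitin-conjugating enzyme of the anaphase-promoting complex dropped out of sight. Ccna2, the partner of CDK2 and CDK1 in S and G2 phase, had 52, 16 and 65 counts in the WT Unstim. libraries and 40, 39 and 148 in the Irg1-/- Unstim. libraries, and 0 in each of the 6 LPS 24h libraries. Taking 3 counts over a group as the floor that a count of 0 allows, Ccna2 was at least 28.5-fold lower in WT and at least 131-fold lower in Irg1-/- cells (adjusted p = 0.00123 and 8.07e-05); floors and counting intervals cover counting error only. Ube2c, which lets that complex destroy cyclin B, had 91, 57 and 68 counts in WT Unstim. and 0 in each WT LPS 24h library, at least 46.3-fold lower (adjusted p = 0.00032). Irg1-/- cells went from 7, 21 and 90 to 0, 3 and 1 Ube2c counts, with a log2 fold change of -5.20 (SE 1.23, adjusted p = 0.00322). Nusap1, which bundles microtubules near chromosomes, had 65, 28 and 38 counts in WT Unstim. and 0 in each WT LPS 24h library, at least 28.1-fold lower (adjusted p = 0.000362). Its Irg1-/- CPM went from 2.65, 1.88 and 20.5 to 0.406, 0.491 and 0.0425, and the log2 fold change was -4.80 (SE 0.97, adjusted p = 0.000646); the Unstim. replicate 3 library held most of its counts, and the call remained without it. These genes overlap a neighbour in the annotation, Ccna2 with Exosc9, Ube2c with Tnnc2 and Nusap1 with Oip5. So do Cdc20 with Elovl1, Kif20a with Cdc23, Prc1 with Rccd1, Ncapg with Lcorl and Cdc45 with Ufd1. Gins2 overlaps Gm20388 and Gse1, and Ccne2 overlaps Ints8. On their own strand Foxm1 overlaps Tex52 and Gm44596, and Cdt1 overlaps Gm20388. The strand setting of the counting is not given in the sources used here, and it would not separate genes on the same strand.

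Kinesins and cytokinesis genes fell with them. Kif11, the motor that pushes spindle poles apart, went from 6.44, 4.01 and 9.22 to 0.243, 0.447 and 1.05 CPM in WT and from 4.68, 3.39 and 12.5 to 1.01, 1.4 and 0.637 in Irg1-/- cells. Its log2 fold changes were -3.45 (SE 0.85, adjusted p = 0.00389) and -2.78 (SE 0.80, adjusted p = 0.0157), with no overlap between groups. Kif23, the kinesin of the central spindle, was at 12.2, 14 and 16.1 CPM in WT Unstim. and 1.95, 2.14 and 4.11 in WT LPS 24h, and at 18.7, 32 and 37.3 and 1.42, 0.421 and 1.02 in Irg1-/- cells, and its log2 fold changes were -2.36 (SE 0.47, adjusted p = 0.000434) and -4.92 (SE 0.53, adjusted p = 2.44e-08). Prc1, which cross-links the central spindle, changed by -2.78 (SE 0.51, adjusted p = 0.000146) on the log2 scale in WT cells, where its CPM went from 22.9, 14 and 15.1 to 1.46, 2.68 and 3.34, and by -4.01 (SE 0.54, adjusted p = 1.18e-06) in Irg1-/- cells. Kif20a, another cytokinesis kinesin, had 37, 46 and 50 counts in WT Unstim. and 0, 3 and 0 in WT LPS 24h, a ratio of 28.5-fold, with a 95% exact counting interval of 9.54 to 139.8 (adjusted p = 0.00164). The Irg1-/- ranges were 0.935 to 5.3 and 0.382 to 1.05 CPM, and it did not pass. Racgap1, the partner of Kif23, fell in WT cells, where its ranges were 5.07 to 6.38 and 0.0955 to 2.32 CPM (log2 fold change -2.34, SE 0.82, adjusted p = 0.049), a call that held in 1 of the 6 fits that each left out a library. Tpx2, which activates Aurora A on spindles, was at 23.5, 9.55 and 8.34 CPM in WT Unstim. and 36.9, 18 and 21.2 in WT LPS 24h, and it passed in neither genotype. For Kif11 the adjusted p exceeded 0.05 without Irg1-/- Unstim. replicate 3 (adjusted p = 0.14), Irg1-/- LPS 24h replicate 1 (adjusted p = 0.0626) or Irg1-/- LPS 24h replicate 3 (adjusted p = 0.0895).

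The kinases and cyclin B genes had few counts, and their calls were made in Irg1-/- cells, where none of the 5 (Ccnb1, Ccnb2, Cdc20, Aurka and Birc5) remained with the pool as a term. Ccnb1, cyclin B1, was at 0.623, 6.6 and 4.23 CPM in Irg1-/- Unstim. and 0, 0.28 and 0.127 in Irg1-/- LPS 24h, and its log2 fold change was -4.71 (SE 1.25, adjusted p = 0.00869). Cdc20, the activator of the anaphase-promoting complex, was at 2.18, 6.79 and 2.3 and 0, 0.351 and 0.085, a log2 fold change of -4.62 (SE 1.20, adjusted p = 0.00712). Ccnb2, cyclin B2 (log2 fold change -3.39, SE 1.07, adjusted p = 0.0293), Aurka, the Aurora A kinase (log2 fold change -2.93, SE 0.81, adjusted p = 0.0117) and Birc5, survivin of the chromosomal passenger complex (log2 fold change -2.88, SE 0.96, adjusted p = 0.0415), fell as well. In WT cells the ranges at Unstim. and LPS 24h were 1.29 to 3.15 and 0 to 0.536 CPM for Ccnb1, 1.8 to 3.06 and 0.243 to 0.536 for Cdc20, and 1.53 to 3.9 and 0.573 to 1.22 for Birc5; these 3 did not overlap between groups but did not pass, and the difference between genotypes did not pass for any member. The kinases Cdk1, Plk1, Aurkb, Bub1 and Bub1b and the factors Foxm1 and Mybl2 passed in neither genotype. Cdk1, the kinase that starts mitosis, was at 10.6, 10.5 and 16.2 CPM in WT Unstim. and 8.64, 7.42 and 3.73 in WT LPS 24h. Foxm1 had 24, 21 and 21 counts in WT Unstim. and 4, 11 and 4 in WT LPS 24h (log2 fold change -1.28, SE 1.29, adjusted p = 0.592). For Ccnb1 the adjusted p exceeded 0.05 without Irg1-/- LPS 24h replicate 1 (adjusted p = 0.0547). For Ccnb2 the adjusted p exceeded 0.05 without Irg1-/- Unstim. replicate 3 (adjusted p = 0.0811), Irg1-/- LPS 24h replicate 1 (adjusted p = 0.0778) or Irg1-/- LPS 24h replicate 3 (adjusted p = 0.148). For Aurka the adjusted p exceeded 0.05 without Irg1-/- Unstim. replicate 1 (adjusted p = 0.0656) or Irg1-/- LPS 24h replicate 2 (adjusted p = 0.0746). The Birc5 call held in 1 of the 6 fits that each left out a library.

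The replication members fell less. Pcna, the sliding clamp, was at 25.3, 37.8 and 50.04 CPM in WT Unstim. and 32.5, 40.3 and 51 in WT LPS 24h, and at 42.7, 35.2 and 23.3 and 23.5, 27.7 and 31 in Irg1-/- cells. The Pcna groups overlapped, and the log2 fold change was 0.13 (SE 0.31, adjusted p = 0.846) in WT and -0.30 (SE 0.31, adjusted p = 0.614) in Irg1-/- cells. Rrm2, the cell cycle regulated subunit of ribonucleotide reductase, was the member called in both genotypes, from 2.64, 3.44 and 2.73 to 0.487, 0.447 and 0 CPM in WT and from 8.1, 3.39 and 6.48 to 0.0676, 0.561 and 0.425 in Irg1-/- cells. Its log2 fold changes were -3.21 (SE 0.97, adjusted p = 0.0208) and -4.05 (SE 0.95, adjusted p = 0.00315), and its partner subunit Rrm1 passed in neither. Of the helicase subunits, Mcm6 fell in WT cells from 14.1, 20.0 and 17.2 to 8.77, 8.31 and 7.16 CPM (log2 fold change -1.08, SE 0.32, adjusted p = 0.018) and Mcm7 in Irg1-/- cells from 14.5, 11.1 and 5.41 to 2.57, 3.44 and 1.74 (log2 fold change -1.99, SE 0.62, adjusted p = 0.0259). Mcm2, Mcm3, Mcm4 and Mcm5 passed in neither. Tyms, thymidylate synthase, fell in Irg1-/- cells from 7.17, 5.28 and 7.01 to 1.96, 0.631 and 2.08 CPM (log2 fold change -2.04, SE 0.49, adjusted p = 0.00374) and went from 6.57, 4.01 and 5.07 to 2.19, 1.88 and 3.73 in WT cells, where it did not pass. The licensing factors Cdc6 and Cdt1, the helicase partners Cdc45 and Gins2, the methylation reader Uhrf1, cyclin E2 (Ccne2) and E2f1 passed in neither. E2f1 was at 4.96, 5.73 and 5.8 CPM in WT Unstim. and 13.9, 11.5 and 9.74 in WT LPS 24h, higher in 3 of 3 libraries without passing (log2 fold change 1.09, SE 0.52, adjusted p = 0.165). For Rrm2 the adjusted p exceeded 0.05 without WT Unstim. replicate 2 (adjusted p = 0.0501) or WT LPS 24h replicate 3 (adjusted p = 0.079). For Mcm6 the adjusted p exceeded 0.05 without WT Unstim. replicate 2 (adjusted p = 0.0746) or WT LPS 24h replicate 3 (adjusted p = 0.0516). For Mcm7 the adjusted p exceeded 0.05 without Irg1-/- Unstim. replicate 1 (adjusted p = 0.113), Irg1-/- Unstim. replicate 2 (adjusted p = 0.0579), Irg1-/- LPS 24h replicate 1 (adjusted p = 0.0876) or Irg1-/- LPS 24h replicate 3 (adjusted p = 0.13).

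**Figure D3:**
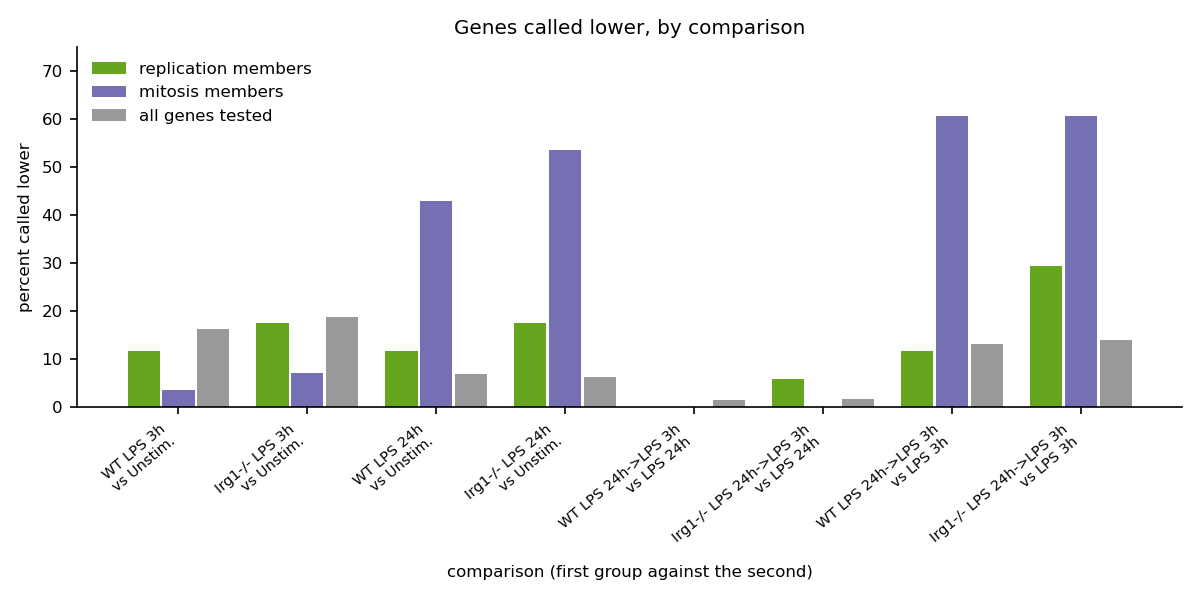
Bars give the percent of 17 replication members, 28 mitosis members and all 11878 genes tested that were called lower in each of 8 comparisons within a genotype. Mitosis members reach 42.9% and 53.6% at LPS 24h and 60.7% in both comparisons of LPS 24h->LPS 3h with LPS 3h, where all genes stand at 6.98%, 6.38%, 13.1% and 14.1%.

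Within pool 4, WT LPS 24h replicate 3 can be set beside the 3 WT Unstim. libraries. There 26 of 28 mitosis members were lower and 2 higher, with a median log2 difference of -1.70, and 12 of 17 replication members were lower (-1.24). The replication mean of that library was the lowest in WT LPS 24h, -1.09 on the log2 scale against -0.46 and -0.71. The share of all genes lower within pool 4 is not given here. With the pool as a term in the fit, 10 members were called in WT and 7 in Irg1-/- cells in place of 14 and 18, and 9 and 7 of them were among those 14 and 18. Of all 11878 genes, that fit called 1890 in WT and 1143 in Irg1-/- cells, in either direction. The calls lost were Mcm6, Rrm2, Cenpe, Ncapg and Racgap1 in WT and Mcm7, Tyms, Ccnb1, Ccnb2, Cdc20, Aurka, Birc5, Kif11, Cenpe, Ube2c and Ncapd2 in Irg1-/- cells. Markers of other cell types were read in the same bulk libraries. The summed level of 10 neutrophil and granulocyte precursor markers was 536 to 720 CPM in WT Unstim. and 72.1 to 231 in WT LPS 24h. In Irg1-/- cells it was 413 to 670 and 143 to 214. Of the 10, 9 were detected in WT Unstim. and 7 in WT LPS 24h. Mpo and Prtn3, the precursor granule enzymes, had 67 and 49 counts over the WT Unstim. group and 0 and 0 over WT LPS 24h. The 3 stem and progenitor markers summed to at most 1.88 CPM in any Unstim. library, with Cd34 at 0 in all 24, and the 3 stromal markers to 241 to 330 CPM in WT Unstim. and 160 to 221 in WT LPS 24h. Of the stromal markers Dcn went the other way, from 13.5 to 26.1 CPM in WT Unstim. up to 31.5 to 35.5 in WT LPS 24h. Neither a change in the share of these other cell types nor their part in the fall of the mitosis members was tested.

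The promoters of the members were read by role, whether or not a member fell. RefSeq start sites (GRCm38.p6) gave a window of 250 bases before to 50 after the start for 37 of 45 members, and the first window listed was taken for the 3 genes with more than 1. The letters TTTGAA or TTCGAA of the CHR element were searched on both strands. They were in 18 of 23 mitosis member windows (78.3%) and in 3 of 14 replication member windows, against 19.2% of all 32851 windows. The 18 include Bub1, Bub1b, Plk1, Cdk1 and Smc2, which did not pass at LPS 24h, and Mki67. The Cenpe and Nusap1 windows, of genes that fell in both genotypes, hold none. Those of Ccnb1 and Birc5, which fell in Irg1-/- cells, and of Mybl2 hold none either. CCAAT, the letters bound by NF-Y, was in each of those 18, and both occurred in 7.52% of all windows. The E2F letters TTTCCCGC or TTTGGCGC were in 6 of 14 replication member windows and 2 of 23 mitosis member windows, against 1.56% of all. A match is a description of letters and was not tested as a site. Shown for mitosis, with CHR letters of either strand in capitals, are the 3 members of lowest adjusted p in WT LPS 24h: Cenpf (chr1:189688037-189688336, minus strand), Top2a (chr11:99024140-99024439, minus strand) and Prc1 (chr7:80294201-80294500, plus strand).
Cenpf: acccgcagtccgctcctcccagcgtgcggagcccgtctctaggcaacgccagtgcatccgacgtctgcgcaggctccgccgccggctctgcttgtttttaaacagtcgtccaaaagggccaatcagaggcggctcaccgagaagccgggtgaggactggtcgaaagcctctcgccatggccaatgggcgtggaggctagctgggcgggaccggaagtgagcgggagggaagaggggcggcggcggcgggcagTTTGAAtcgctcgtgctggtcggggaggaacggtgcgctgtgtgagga
Top2a: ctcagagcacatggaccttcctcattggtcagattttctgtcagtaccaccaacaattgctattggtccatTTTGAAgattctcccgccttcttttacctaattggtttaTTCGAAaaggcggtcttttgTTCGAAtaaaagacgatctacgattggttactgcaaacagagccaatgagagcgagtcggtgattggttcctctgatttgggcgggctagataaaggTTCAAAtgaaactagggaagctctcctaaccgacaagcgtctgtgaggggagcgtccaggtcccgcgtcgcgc
Prc1: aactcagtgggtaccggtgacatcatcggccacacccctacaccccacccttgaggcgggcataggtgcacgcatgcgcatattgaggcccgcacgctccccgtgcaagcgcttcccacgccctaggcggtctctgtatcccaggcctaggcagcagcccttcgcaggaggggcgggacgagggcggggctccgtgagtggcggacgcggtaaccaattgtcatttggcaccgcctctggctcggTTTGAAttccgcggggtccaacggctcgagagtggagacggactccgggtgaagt
In these windows the CHR letters of Cenpf and Prc1 lie within 5 bases of the start and Top2a holds 4 matches. For replication, with E2F letters in capitals, they are the 3 of lowest adjusted p in WT LPS 24h among the members that hold the letters, Mcm6 (chr1:128359656-128359955, minus strand), Mcm7 (chr5:138171834-138172133, minus strand) and Mcm3 (chr1:20820263-20820562, minus strand), all helicase subunits.
Mcm6: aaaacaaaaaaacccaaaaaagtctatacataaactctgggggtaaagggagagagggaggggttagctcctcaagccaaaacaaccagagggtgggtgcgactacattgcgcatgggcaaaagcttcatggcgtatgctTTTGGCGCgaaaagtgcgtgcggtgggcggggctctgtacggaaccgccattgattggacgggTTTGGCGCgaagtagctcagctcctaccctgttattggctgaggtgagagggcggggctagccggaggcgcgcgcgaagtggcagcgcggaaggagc
Mcm7: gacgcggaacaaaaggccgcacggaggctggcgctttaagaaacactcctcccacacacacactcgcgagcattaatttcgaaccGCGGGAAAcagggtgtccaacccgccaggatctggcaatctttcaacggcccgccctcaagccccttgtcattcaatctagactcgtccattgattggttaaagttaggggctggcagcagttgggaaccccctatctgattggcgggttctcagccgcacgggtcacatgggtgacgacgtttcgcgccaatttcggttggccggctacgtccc
Mcm3: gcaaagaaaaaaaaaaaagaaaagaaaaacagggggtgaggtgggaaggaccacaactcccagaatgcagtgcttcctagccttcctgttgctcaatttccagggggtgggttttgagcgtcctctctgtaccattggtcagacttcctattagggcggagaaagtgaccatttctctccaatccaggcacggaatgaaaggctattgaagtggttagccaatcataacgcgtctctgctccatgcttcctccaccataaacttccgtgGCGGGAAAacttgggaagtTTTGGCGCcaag
Mcm6, with 2 matches, fell in WT LPS 24h, Mcm7 fell in Irg1-/- LPS 24h, and Mcm3 passed in neither.

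At LPS 3h the set as a whole had moved little, with 1 clear exception. Of the 45 members, 1 rose and 3 fell in WT cells, and 2 rose and 5 fell in Irg1-/- cells. Among all genes tested 15.8% rose and 16.3% fell in WT, and 17% rose and 18.9% fell in Irg1-/- cells. The median log2 fold change of the mitosis members was -0.42 in WT and -0.52 in Irg1-/- cells, and of the replication members -0.25 and -0.49, against -0.18 and -0.20 over all genes. Top2a, Cenpf, Prc1 and Ccna2, which were low at 24 h, did not pass at 3 h in either genotype; Top2a was at 26.4, 56.5 and 44.1 CPM in WT LPS 3h.

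The exception was Mki67, at chr7:135689784-135716361, which encodes Ki-67, the surfactant-like coat of mitotic chromosomes used as a marker of dividing cells. It was at 18.4, 10.2 and 29.7 CPM in WT Unstim. and 147, 436 and 159 in WT LPS 3h, and at 9.82, 28.7 and 53.8 in Irg1-/- Unstim. and 280.0, 239 and 307 in Irg1-/- LPS 3h. The lowest LPS 3h library of each genotype was above the highest Unstim. library by over 4-fold. The log2 fold change was 3.66 (SE 0.57, adjusted p = 5.51e-06) in WT and 3.15 (SE 0.56, adjusted p = 3.7e-05) in Irg1-/- cells, 12.7-fold and 8.88-fold. Both calls remained without each library in turn, and in pool 4, which holds the Unstim. libraries, the WT LPS 3h library was at 159 CPM. At LPS 24h Mki67 was at 4.26, 7.78 and 12.8 CPM in WT and 16, 5.61 and 19.2 in Irg1-/- cells, overlapping Unstim., and it did not pass (log2 fold change -1.23, SE 0.54, adjusted p = 0.125 in WT). Its promoter window held TTTGAA at 2 positions, letters that the Cenpf, Top2a and Prc1 windows hold too. No gene of the table overlaps Mki67 in the annotation.

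**Figure D4:**
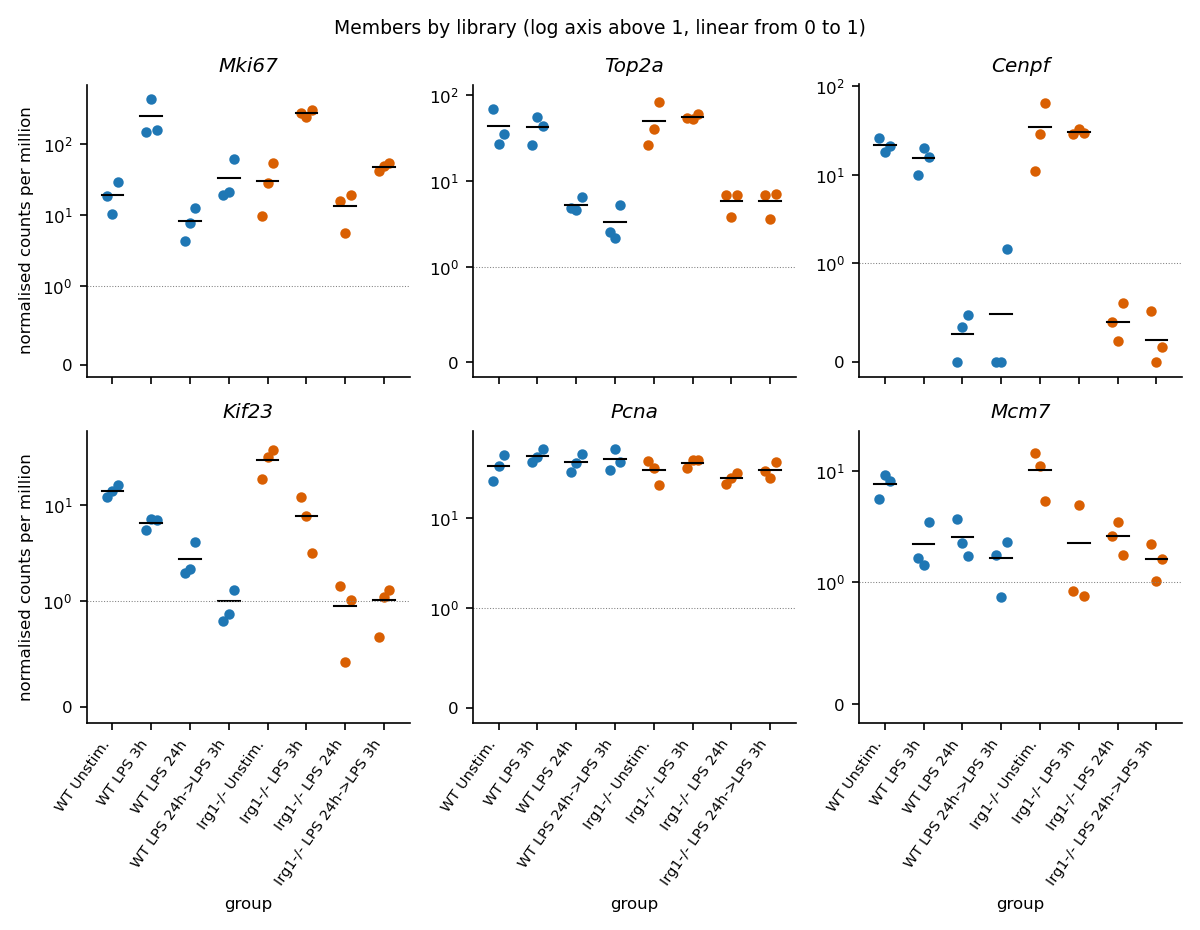
Points are the CPM of 6 members in each library (WT blue, Irg1-/- orange), bars the mean of 3, on an axis that is logarithmic above 1 and linear below. Mki67 peaks at LPS 3h and is partly up again at LPS 24h->LPS 3h, Top2a, Cenpf and Kif23 are low in both groups that had 24 h of LPS, and Pcna is level.

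Tpx2 rose beside Mki67 in Irg1-/- cells, from 16.1, 6.6 and 18.3 to 30.6, 45.6 and 51.5 CPM (log2 fold change 1.62, SE 0.45, adjusted p = 0.0056). In WT cells it went from 23.5, 9.55 and 8.34 to 15.3, 46.1 and 23.8, which overlapped and did not pass (log2 fold change 1.05, SE 0.45, adjusted p = 0.072). Mcm7 fell in both genotypes at 3 h, from 5.54, 9.17 and 8.19 to 1.64, 1.42 and 3.44 CPM in WT (log2 fold change -1.80, SE 0.63, adjusted p = 0.027) and from 14.5, 11.1 and 5.41 to 0.927, 4.92 and 0.879 in Irg1-/- cells (log2 fold change -2.21, SE 0.64, adjusted p = 0.00742). Mcm7 shares its locus with Cops6 and Ap4m1. The other members that fell were Cdc45, of the replicative helicase, and Cdk1 in WT cells, and Mcm3, E2f1, Kif23 and Ncapd2 in Irg1-/- cells. Cdc45 had 14, 34 and 42 counts in WT Unstim. and 2, 0 and 0 in WT LPS 3h, a ratio of 20.8-fold, with a 95% exact counting interval of 5.59 to 174 (adjusted p = 0.0231), and Cdk1 went from 10.6, 10.5 and 16.2 to 8.93, 2.96 and 3.71 CPM (log2 fold change -1.28, SE 0.45, adjusted p = 0.0283). Kif23 fell from 18.7, 32 and 37.3 to 12, 7.62 and 3.17 CPM in Irg1-/- cells (log2 fold change -1.93, SE 0.46, adjusted p = 0.0013), and the call remained without each library in turn. On the log2 scale E2f1 changed in Irg1-/- cells by -1.76 (SE 0.56, adjusted p = 0.0143), Mcm3 by -1.08 (SE 0.38, adjusted p = 0.0274) and Ncapd2 by -1.82 (SE 0.62, adjusted p = 0.0217). With the pool as a term the calls that remained at LPS 3h were Mki67 and Cdk1 in WT and Mki67 and Mcm3 in Irg1-/- cells, so Mcm7 in both, Cdc45, E2f1, Kif23, Tpx2 and Ncapd2 were lost. With a replicate block nested in genotype added, 0 of the 7 Irg1-/- calls remained, Mki67 among those lost (log2 fold change 3.13, adjusted p = 0.0885), and the 1 member called there was another. Several calls also rested on single libraries. For Mcm7 the adjusted p exceeded 0.05 without WT Unstim. replicate 2 (adjusted p = 0.0827), WT Unstim. replicate 3 (adjusted p = 0.0659), WT LPS 3h replicate 1 (adjusted p = 0.0955) or WT LPS 3h replicate 2 (adjusted p = 0.116). For Cdc45 the adjusted p exceeded 0.05 without WT Unstim. replicate 2 (adjusted p = 0.0798), WT LPS 3h replicate 2 (adjusted p = 0.106) or WT LPS 3h replicate 3 (adjusted p = 0.102). For Cdk1 the adjusted p exceeded 0.05 without WT Unstim. replicate 3 (adjusted p = 0.139), WT LPS 3h replicate 2 (adjusted p = 0.158) or WT LPS 3h replicate 3 (adjusted p = 0.129). In Irg1-/- cells the Mcm7 adjusted p exceeded 0.05 without Irg1-/- LPS 3h replicate 1 (adjusted p = 0.054). For Mcm3 the adjusted p exceeded 0.05 without Irg1-/- Unstim. replicate 2 (adjusted p = 0.231), Irg1-/- LPS 3h replicate 1 (adjusted p = 0.13) or Irg1-/- LPS 3h replicate 3 (adjusted p = 0.0785). For E2f1 the adjusted p exceeded 0.05 without Irg1-/- Unstim. replicate 1 (adjusted p = 0.104) or Irg1-/- LPS 3h replicate 3 (adjusted p = 0.0883). For Ncapd2 the adjusted p exceeded 0.05 without Irg1-/- Unstim. replicate 2 (adjusted p = 0.107), Irg1-/- LPS 3h replicate 1 (adjusted p = 0.0606) or Irg1-/- LPS 3h replicate 2 (adjusted p = 0.11).

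Few members moved with a further 3 h of LPS after 24 h. Against LPS 24h, 2 members rose in WT cells (Mki67 and Nusap1) and 0 fell, and in Irg1-/- cells Mki67 and Tyms rose and Mcm6 fell; among all genes 2.46% rose and 1.53% fell in WT and 3.44% rose and 1.7% fell in Irg1-/- cells. Mki67 went from 4.26, 7.78 and 12.8 to 19, 21 and 61 CPM in WT and from 16, 5.61 and 19.2 to 42.1, 48.6 and 54.7 in Irg1-/- cells, with no overlap. The log2 fold change was 2.02 (SE 0.55, adjusted p = 0.0292) in WT and 1.83 (SE 0.53, adjusted p = 0.0372) in Irg1-/- cells. For Mki67 the adjusted p exceeded 0.05 without WT LPS 24h replicate 1 (adjusted p = 0.114), WT LPS 24h replicate 2 (adjusted p = 0.114) or WT LPS 24h->LPS 3h replicate 3 (adjusted p = 0.284). The Irg1-/- call held in 1 of the 6 fits that each left out a library, and without each of the other 5 the adjusted p was 0.0967, 0.222, 0.0648, 0.0842 and 0.112. Nusap1 had 0 counts in each WT LPS 24h library and 23, 9 and 7 in WT LPS 24h->LPS 3h, at least 12.4-fold higher (adjusted p = 0.0123). For Nusap1 the adjusted p exceeded 0.05 without WT LPS 24h replicate 2 (adjusted p = 0.0609), WT LPS 24h replicate 3 (adjusted p = 0.0579) or WT LPS 24h->LPS 3h replicate 1 (adjusted p = 0.0544). Tyms went from 1.96, 0.631 and 2.08 to 5.18, 5 and 7.29 CPM in Irg1-/- cells (log2 fold change 1.88, SE 0.49, adjusted p = 0.0166), and Mcm6 from 10.8, 10.3 and 17.6 to 4.23, 6.89 and 7.37 (log2 fold change -1.07, SE 0.32, adjusted p = 0.0472), a call that held in 0 of the 6 fits that each left out a library. For Tyms the adjusted p exceeded 0.05 without Irg1-/- LPS 24h replicate 2 (adjusted p = 0.125) or Irg1-/- LPS 24h->LPS 3h replicate 3 (adjusted p = 0.0824).

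The same 3 h of LPS was thus read with and without 24 h of LPS before it. Against LPS 3h, 19 members were lower in LPS 24h->LPS 3h in WT cells and 2 higher, and 22 lower and 1 higher in Irg1-/- cells. In each genotype 17 of 28 mitosis members were lower and 0 higher, where 13.1% of all genes were lower and 12.4% higher in WT, and 14.1% lower and 13.1% higher in Irg1-/- cells. The median log2 fold change of the mitosis members was -2.81 in WT and -2.84 in Irg1-/- cells, against 0.13 and 0.12 over all genes; with genes at 0 counts put at their bound, the WT median was -2.76. Members called in both genotypes numbered 16, or 76.2% of the WT calls and 69.6% of the Irg1-/- calls. Mki67 was at 19, 21 and 61 CPM in WT LPS 24h->LPS 3h against 147, 436 and 159 in WT LPS 3h, and at 42.1, 48.6 and 54.7 against 280.0, 239 and 307 in Irg1-/- cells. Its level after the repeat dose was below that at LPS 3h by 2.87 (SE 0.55, adjusted p = 0.000213) and 2.51 (SE 0.54, adjusted p = 0.000721) on the log2 scale. Cenpe was at 6.11, 6.53 and 12.5 CPM against 34.8, 56.3 and 88.8 in WT cells, which gave -2.83 (SE 0.46, adjusted p = 2.32e-05) as its log2 fold change, and Top2a gave -3.66 (SE 0.46, adjusted p = 5.84e-07). Ccnb1 and Plk1, the Polo-like kinase, had 0 counts in each WT LPS 24h->LPS 3h library, at least 19-fold and 8.27-fold lower than at LPS 3h. The other mitosis members lower in both genotypes were Ccna2, Birc5, Kif11, Kif23, Cenpf, Tpx2, Prc1, Ube2c and Ncapg. Ccnb2, Cdc20, Plk1 and Ncapd2 passed in WT cells, and Cdk1, the checkpoint kinases Bub1 and Bub1b and Aurkb, the Aurora B kinase, in Irg1-/- cells. Within pools, 23 to 27 of 28 mitosis members were lower in the 3 WT pairs of libraries, and 28 of 28 in the Irg1-/- pair of pool 2. The share of all genes lower in these pairs is not given here. With the pool as a term 20 members were called in WT and 10 in Irg1-/- cells, and the Mki67 call was lost in Irg1-/- cells. Of all 11878 genes, that fit called 3162 in WT and 1407 in Irg1-/- cells, in either direction. The granulocyte markers summed to 562 to 666 CPM in WT LPS 3h and 70.8 to 148 in WT LPS 24h->LPS 3h, and to 412 to 602 and 65.1 to 104 in the Irg1-/- groups, and their part in these falls was not tested.

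Among replication members Mcm6 and Rrm2 were lower in both genotypes and E2f1 was higher. Mcm6 was at 7.49, 11.8 and 9.93 CPM against 22.1, 29.4 and 28.6 in WT cells (log2 fold change -1.45, SE 0.32, adjusted p = 0.00112), and at 4.23, 6.89 and 7.37 against 28.5, 29.9 and 24.4 in Irg1-/- cells (log2 fold change -2.16, SE 0.33, adjusted p = 9.15e-06). Rrm2 had 0 counts in each WT LPS 24h->LPS 3h library and 21, 14 and 39 in WT LPS 3h, at least 36-fold lower (adjusted p = 0.000134). E2f1, the activator of S phase genes, was at 7.26, 14.3 and 5.73 CPM against 4.74, 1.3 and 1.32 in WT and 8.18, 9.57 and 7.9 against 2.88, 3.02 and 0.352 in Irg1-/- cells, with no overlap, and its log2 fold changes were 1.93 (SE 0.56, adjusted p = 0.0103) and 2.00 (SE 0.56, adjusted p = 0.00749). In WT cells the E2f1 call was lost without WT LPS 3h replicate 2 (adjusted p = 0.0699), WT LPS 3h replicate 3 (adjusted p = 0.072) or WT LPS 24h->LPS 3h replicate 2 (adjusted p = 0.0891). Cdc45 was higher in WT cells, with overlap and 3, 15 and 36 against 2, 0 and 0 counts, a ratio of 18.5-fold, with a 95% exact counting interval of 4.88 to 157 (adjusted p = 0.0471), and Rrm1, Cdc6 and Ccne2 were lower in Irg1-/- cells. Without each of 6 libraries in turn, the calls that were not always kept held as follows in WT cells: Cdc45 in 2, Ccnb2 in 2, Cdc20 in 5, Plk1 in 3 and Tpx2 in 5 of 6 fits. Those of Irg1-/- cells held for Cdc6 in 3, Ccne2 in 5, Cdk1 in 5, Bub1 in 2, Aurkb in 1 and Ube2c in 3 of 6.

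Loss of Irg1 made no call among the members. Irg1-/- was compared with WT at each of the 4 treatments, and edgeR called 0 of 45 members at each. Of all genes it called 0.0421% at Unstim., 0.00842% at LPS 3h, 0.598% at LPS 24h and 0.118% after the repeat dose. At an unadjusted p under 0.05 there were 1, 0, 6 and 6 members in that order. The share of all genes under that unadjusted limit is not given here, so these counts have no background. DESeq2 called 0, 0, 1 (Ccnb2) and 1 (Bub1b) of the members, and 32, 8, 191 and 101 of all 11878 genes. Whether the genotypes responded unequally to LPS 3h or to LPS 24h was tested as an interaction, and edgeR called 0 members in both, against 0.00842% and 0.21% of all genes. Unadjusted p was under 0.05 for 0 and 2 members, again without a count over all genes. DESeq2 called 0 and 1 (Kif23) of the members, and 4 and 89 of all genes. Kif23 went from 14.1 ± 1.98 to 2.73 ± 1.19 CPM (SD, n = 3) in WT and from 29.4 ± 9.59 to 0.953 ± 0.503 in Irg1-/- cells, an interaction of -2.56 (SE 0.66, adjusted p = 0.109) on the log2 scale. Mki67 at LPS 3h was 247 ± 163 CPM in WT and 276 ± 34.2 in Irg1-/- cells, and the interaction was -0.51 (SE 0.73, adjusted p = 0.993). LPS-treated libraries of the genotypes were spread over the pools unequally. Among Unstim. libraries, Irg1-/- replicate 3 had the highest level of any of the 24 libraries for 12 members. Its mitosis mean was 0.65 on the log2 scale above WT Unstim., and the other Irg1-/- Unstim. libraries were at -0.41 and 0.00. A missing call does not show that the genotypes act alike: the standard errors of these log2 differences were wide, 0.53 for Mki67 and 0.84 for Kif11 at LPS 24h.

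The regulators of G1 phase were read from lists of other genes. Cdkn1a, encoding the CDK inhibitor p21, was at 354, 384 and 307 CPM in WT Unstim., 15748, 5871 and 12060.1 at LPS 3h, 2361, 3374 and 5513 at LPS 24h and 767, 984 and 850.4 at LPS 24h->LPS 3h. These 4 WT groups did not overlap one another. The Irg1-/- ranges were 354 to 562 at Unstim., 6537 to 12486 at LPS 3h, 1772 to 3259.6 at LPS 24h and 876 to 2123 after the repeat dose. It rose at LPS 3h by 5.01 in WT and 4.16 in Irg1-/- cells on the log2 scale (SE 0.43 and 0.42, adjusted p = 6.45e-11 and 1.54e-09), and was still up at LPS 24h by 3.43 and 2.34 (adjusted p = 8.94e-08 and 3.42e-05). Cdkn1c, encoding p57, went the other way at LPS 24h, from 36.7, 42.8 and 43.8 to 1.22, 5.72 and 4.68 CPM in WT (log2 fold change -3.39, SE 0.49, adjusted p = 3.97e-06) and from 16.4, 16.6 and 23.1 to 3.31, 3.37 and 2.68 in Irg1-/- cells (log2 fold change -2.59, SE 0.48, adjusted p = 0.000171). Cdkn2c, encoding p18, fell at LPS 3h by 3.30 in WT and 2.59 in Irg1-/- cells and at LPS 24h in Irg1-/- cells by 2.23. Against Unstim., Cdkn1b (p27), Cdkn2b and Cdkn2d passed in no comparison, and Cdkn2a had too few counts to be tested. Of the 6 inhibitors tested, 1 rose and 1 fell in each comparison with Unstim., save for 2 that fell in Irg1-/- LPS 24h. Over all genes 15.8% rose and 16.3% fell in WT LPS 3h, and 17% and 18.9% in Irg1-/- LPS 3h. At LPS 24h these shares were 9.25% and 6.98% in WT and 7.31% and 6.38% in Irg1-/- cells.

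Ccnd2, cyclin D2, which pairs with CDK4 and CDK6 to carry cells out of G1 phase, was at 48.2, 50.03 and 52.3 CPM in WT Unstim. and 1193, 1049.8 and 1306 in WT LPS 3h, and at 44.4, 53.2 and 79.8 and 1563, 1067 and 1511 in Irg1-/- cells. The log2 fold change was 4.56 (SE 0.33, adjusted p = 1.13e-12) and 4.54 (SE 0.33, adjusted p = 1.23e-12). At LPS 24h it was at 60.1 to 67.5 CPM in WT, above the Unstim. libraries without overlap, and did not pass, and unlike Mki67 it did not return with a further 3 h of LPS, at 39.9, 36.3 and 61.9. Ccnd1, cyclin D1, fell in Irg1-/- cells at LPS 3h and LPS 24h (-1.14 and -1.70 on the log2 scale, with overlap), and passed in neither WT comparison. Ccnd3 passed in none of these 4 comparisons. Cyclin E1, Ccne1, was at 1.22, 1.91 and 2.49 CPM in WT Unstim. and 37.9, 24.9 and 33.8 in WT LPS 3h (log2 fold change 4.09, SE 0.63, adjusted p = 4.71e-06) and rose in Irg1-/- cells too (log2 fold change 3.44, SE 0.61, adjusted p = 4.32e-05), where the member Ccne2 did not pass (5.54, 3.53 and 4.63 and 4.37, 7.35 and 3.18 CPM in WT).

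**Figure D5:**
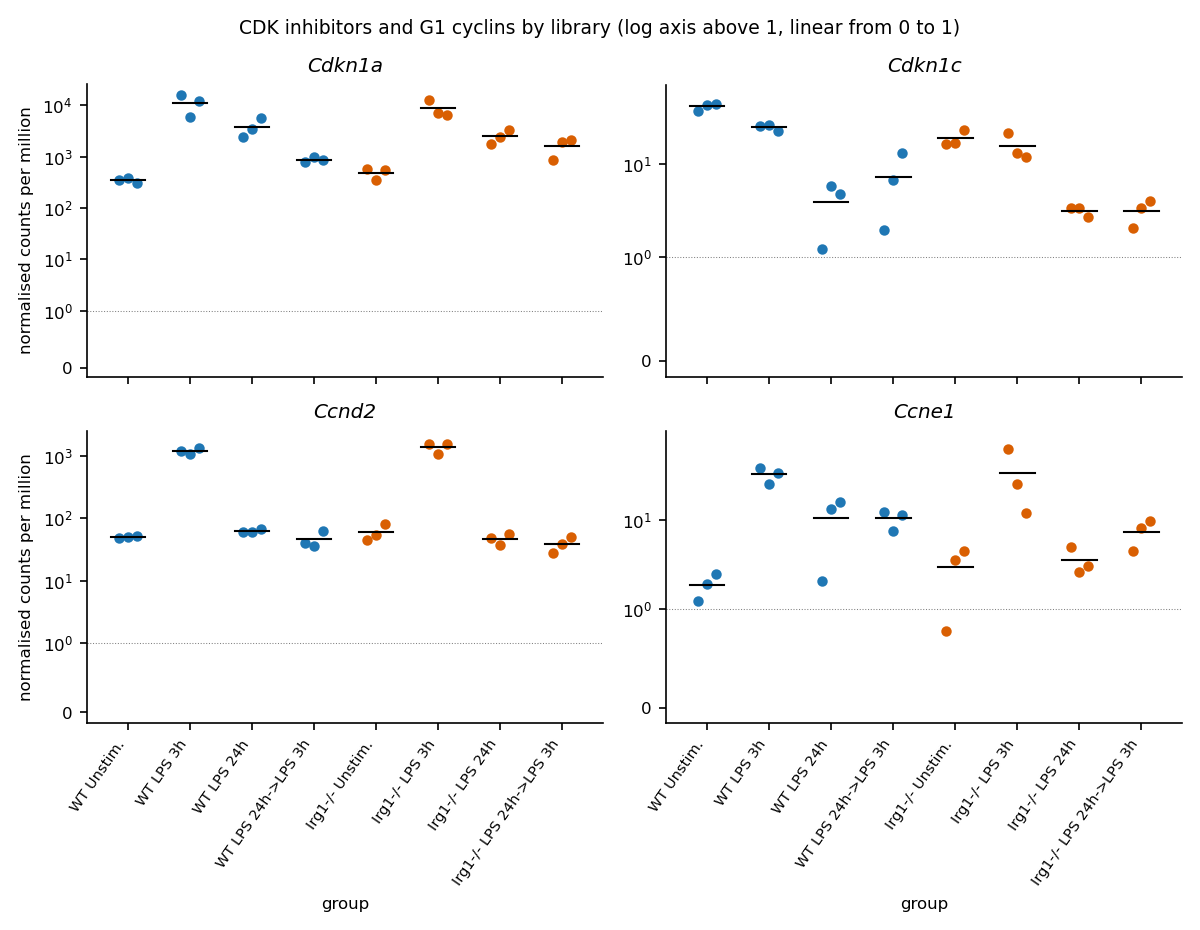
Points are the CPM of 4 regulators in each library (WT blue, Irg1-/- orange), bars the mean of 3, on an axis that is logarithmic above 1 and linear below. Cdkn1a, Ccnd2 and Ccne1 are high in all 6 LPS 3h libraries, Ccnd2 is under 100 CPM in every group but LPS 3h, and Cdkn1c is low in both groups that had 24 h of LPS.

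Genes of the same processes that are not members were counted as well. Of 39 other mitosis genes tested, 1 rose and 3 fell in WT LPS 3h, 1 and 4 in Irg1-/- LPS 3h, 1 and 11 in WT LPS 24h, and 0 and 10 in Irg1-/- LPS 24h, with a median log2 fold change of -1.16 and -2.16 in the latter pair against 0.00 and -0.00 over all genes. Over all genes 16.3% fell in WT LPS 3h, 18.9% in Irg1-/- LPS 3h, 6.98% in WT LPS 24h and 6.38% in Irg1-/- LPS 24h. At LPS 24h Aspm, which holds spindle poles together, had 3, 0 and 0 counts in WT against 129, 52 and 58 at Unstim., a CPM ratio of 51.2-fold, with a 95% exact counting interval of 17.3 to 249.9 (adjusted p = 0.000296). Kif4, a chromosome kinesin, had 0, 0 and 2 counts in Irg1-/- LPS 24h against 5, 14 and 102 at Unstim., a ratio of 105-fold, with a 95% exact counting interval of 28.4 to 874 (adjusted p = 0.00174). Ckap2 and Pbk in WT and Troap in Irg1-/- cells fell to 0 counts in each LPS 24h library, and Kif2c fell in Irg1-/- cells to 0, 0 and 0.085 CPM. Pttg1, securin, which guards sister chromatids, went against them: it rose in WT cells from 14.8, 8.88 and 15.8 to 55.8, 43 and 35.8 CPM at LPS 3h (log2 fold change 1.76, SE 0.34, adjusted p = 0.000121) and 40.3, 54.6 and 52.9 at LPS 24h (log2 fold change 1.90, SE 0.34, adjusted p = 9.44e-05), and in Irg1-/- LPS 3h (log2 fold change 1.40, SE 0.34, adjusted p = 0.0016). At LPS 3h the centromere histone Cenpa fell from 27.1, 33.7 and 29.3 to 7.84, 8.65 and 11.9 CPM in WT (log2 fold change -1.66, SE 0.39, adjusted p = 0.00118) and in Irg1-/- cells (log2 fold change -2.35, SE 0.40, adjusted p = 2.08e-05), as did Fbxo5, the brake on the anaphase-promoting complex (-1.57 and -2.21), Incenp in WT (-1.36) and Ncaph in Irg1-/- cells (-1.84).

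Of 41 other replication genes tested, 2 rose and 8 fell in WT LPS 3h, 2 and 7 in Irg1-/- LPS 3h, 0 and 3 in WT LPS 24h, and 0 and 5 in Irg1-/- LPS 24h. Of all genes 16.3%, 18.9%, 6.98% and 6.38% fell in the same comparisons, in that order. At LPS 3h Dnmt1, the maintenance DNA methyltransferase, fell from 60.4, 49.2 and 62.3 to 11.7, 22.6 and 13.4 CPM in WT (log2 fold change -1.84, SE 0.37, adjusted p = 0.000179) and in Irg1-/- cells (log2 fold change -1.94, SE 0.37, adjusted p = 0.000105), and at LPS 24h it was back at 45, 57.3 and 46.5 in WT. Chaf1a, of the chromatin assembly factor, fell at LPS 3h by 2.07 and 3.81 on the log2 scale, and the polymerase genes Pold1 in WT and Pole in Irg1-/- cells fell too. Timeless, of the fork protection complex, rose from 1.29, 2.2 and 2.39 to 9.66, 21.6 and 11 CPM in WT (log2 fold change 2.84, SE 0.69, adjusted p = 0.00181) and in Irg1-/- cells (log2 fold change 2.05, SE 0.67, adjusted p = 0.017), and Rfc3, of the clamp loader, by 1.38 and 1.52. At LPS 24h Clspn, the adaptor of the replication checkpoint, fell in both genotypes (-3.26 and -2.36), as did Lig1, with overlap in Irg1-/- cells; Hells fell in WT cells, and Dscc1 in Irg1-/- cells.

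Of 40 regulators of G1 phase and checkpoints, 10 rose and 9 fell at LPS 3h in each genotype, 5 rose and 6 fell in WT LPS 24h, and 3 rose and 9 fell in Irg1-/- LPS 24h. Of all genes 15.8% rose and 16.3% fell in WT LPS 3h, 17% and 18.9% in Irg1-/- LPS 3h, 9.25% and 6.98% in WT LPS 24h, and 7.31% and 6.38% in Irg1-/- LPS 24h. Gmnn, geminin, which blocks a repeat of licensing, fell at LPS 3h from 27.1, 22.7 and 44.5 to 2.73, 2.73 and 1.72 CPM in WT (log2 fold change -3.72, SE 0.47, adjusted p = 1.59e-07) and from 32.1, 34.1 and 23.6 to 2.16, 2.06 and 2.99 in Irg1-/- cells (log2 fold change -3.64, SE 0.47, adjusted p = 2.42e-07). Chek2, a checkpoint kinase, fell by 4.68 and 3.13, E2f2 by 3.22 and 3.72, and Cdk2 by 1.30 and 2.23, WT first. E2f2 was named from the WT comparison. Its Irg1-/- LPS 3h value did not meet the rule for naming genes, which asks for a call, no overlap and enough counts. Those that rose most at LPS 3h were Gadd45b, a stress gene that restrains CDK1, by 4.13 and 4.35, Ccne1, E2f8 by 3.46 and 1.90, and Mxd1, an antagonist of MYC, by 3.39 and 3.68. At LPS 24h Myc, the growth regulator, fell from 3.35, 2.96 and 3.12 to 0.243, 0.357 and 1.15 CPM in WT (log2 fold change -2.39, SE 0.63, adjusted p = 0.00692) and from 7.32, 9.99 and 5.51 to 0.609, 0.491 and 0.297 in Irg1-/- cells (log2 fold change -4.01, SE 0.65, adjusted p = 2.62e-05), while Mxd1 was up by 2.63 and 1.54. Fzr1, encoding Cdh1, which keeps mitotic cyclins unstable in G1 phase, rose at LPS 24h by 1.07 and 1.22 in the same order, Gadd45b rose in both genotypes and Ccng1 in WT cells. The others named by the rule at LPS 24h were E2f2, Tfdp2 and Gadd45a, which fell in both genotypes, and Plk2, which fell in Irg1-/- cells.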

How the data were processed

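3′-end RNA-seq of 24 BMDM cultures was analysed from 1 deposited table of read counts per gene. Per the labels and methods, RNA was tagged with barcoded oligo-dT primers, pooled, amplified by PCR without molecular identifiers and sequenced; the submitters' processing notes name STAR and mm10, and the counting program, annotation and strand setting are not given in the sources used here. The authors deposited raw counts, with 5 summary lines that were left out of library sizes (22.1% to 33.7% of a library had no feature). Genes were kept by edgeR's filterByExpr over 8 groups (11878 of 22165). Counts were fitted with edgeR 4.0.16 (TMM factors, quasi-likelihood test on all 24 libraries, adjusted over all genes tested); DESeq2 1.42.0, other filters, terms for pool or replicate, and leaving out each library were alternatives. On simulated data for WT LPS 24h vs Unstim. (11666 genes) edgeR recovered 9 of 100 genes changed 2-fold and 77 of 100 changed 4-fold, with 5 others called. The changed genes were drawn from those with a mean of at least 10 counts, and no pool or replicate effect was simulated. Recovery at fewer counts, where several members lie, was not tested.

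Replicate libraries differed by more than sampling noise (chi-square per gene 29.1 to 186). Cultures are named as independent by the labels; where separate animals are not named, p-values measure the spread between cultures. Members and lists were chosen with earlier results of these data known. Named genes were all members, all CDK inhibitors and D-type cyclins, and up to 3 highest and 3 lowest calls of each other list with no overlap and 10 or more counts per library on average where the gene was higher; 1 gene that this rule names is not reported here. Promoters came from RefSeq (GRCm38.p6).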

Additional observations from a re-analysis of the deposited data

How the results depend on the processing

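The calls of members fell most when the pool was a term in the fit, which leaves 1 WT library in each LPS group that shares a pool with the Unstim. libraries. With that term 3 members were called for Irg1-/- LPS 3h vs Unstim., 7 for Irg1-/- LPS 24h vs Unstim., 1 for Irg1-/- LPS 24h->LPS 3h vs LPS 24h and 10 for Irg1-/- LPS 24h->LPS 3h vs LPS 3h, in place of 7, 18, 3 and 23. Of all 11878 genes tested, that fit called 2361, 1143, 594 and 1407 in the same order, in either direction. With the pool as a term and a replicate block nested in genotype, the counts were 1 for Irg1-/- LPS 3h vs Unstim. and 7 for WT LPS 24h vs Unstim. (14 without these terms). They were 1 for Irg1-/- LPS 24h vs Unstim. and 8 for Irg1-/- LPS 24h->LPS 3h vs LPS 3h. Of all 11878 genes, 1487, 982, 294 and 1153 were called with both terms, in the same order. Cenpe in Irg1-/- LPS 24h vs Unstim. changed sign in that fit (log2 fold change 0.65, adjusted p = 0.671). Fitting the compared groups alone left 0 calls for WT LPS 24h->LPS 3h vs LPS 24h, in place of 2. Of all 10375 genes tested in that fit, 109 were called. In the main fit 292 of 11878 genes were called higher and 182 lower. DESeq2 called 1 member each for Irg1-/- vs WT at LPS 24h (Ccnb2), at LPS 24h->LPS 3h (Bub1b) and for the genotype difference in the LPS 24h response (Kif23), and no filter on low counts gave 1 each at LPS 24h (Tpx2) and LPS 24h->LPS 3h (Rrm1), in place of 0. Over all genes, DESeq2 called 191, 101 and 89 in these comparisons, and the fit without that filter 246 and 133. The causes were not tested.

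Same-numbered libraries of 1 genotype deviated together (r over 0.1) in 5 of 36 pairs, against 6 of 72 pairs with unlike numbers. Across genotypes this held for 11 of 48 same-numbered pairs and 7 of 96 with unlike numbers. The main fit did not take the numbers to pair the samples, and a replicate block was an alternative. With a replicate block, 13 members were called in WT and 17 in Irg1-/- LPS 24h vs Unstim., and with the block nested in genotype 13 and 17. Of all 11878 genes, the block left 2019 and 1743 calls, and the nested block 1892 and 1647. Leaving out 1 library at a time gave 1 to 5 calls in WT LPS 3h vs Unstim., 4 to 7 in Irg1-/- LPS 3h vs Unstim., 11 to 14 and 12 to 19 in WT and Irg1-/- LPS 24h vs Unstim., 1 to 2 and 0 to 2 in LPS 24h->LPS 3h vs LPS 24h, and 17 to 21 and 19 to 22 in LPS 24h->LPS 3h vs LPS 3h, with 0 in each comparison between genotypes. The count of 1 in WT LPS 3h vs Unstim. came without WT LPS 3h replicate 2. The counts of 0 in Irg1-/- LPS 24h->LPS 3h vs LPS 24h came without Irg1-/- LPS 24h replicate 2 or Irg1-/- LPS 24h->LPS 3h replicate 3. The calls over all genes without each library are not given here, so these ranges have no background. Low member counts limit the set: members had 1534 to 17112 counts per library, and 1 to 11 members were at 0 in each LPS 24h or LPS 24h->LPS 3h library. The library with 11 at 0, WT LPS 24h->LPS 3h replicate 3, had 13805923 gene counts.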
